A study of Drosophila melanogaster with 3 samples.

Results

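The weaker promoter peaks described here are entries of a pooled list of chromatin immunoprecipitation sequencing (ChIP-seq) peaks that lie at promoters but outside the list of peaks that passed the authors' reproducibility filter. They were chosen by peak signal and position, as the pooled peaks that overlapped no peak of the filtered list by 1 bp or more and had their summit at most 500 bp from the annotated start of transcription (TSS, transcription start site) of a protein-coding gene. This gave 6213 of the 30000 pooled peaks, among 25684 that overlapped no filtered peak. The samples were whole Drosophila melanogaster embryos of mixed sex, collected over 0 to 24 h, from a transgenic line (Dhr51-GFP) that stably expressed the nuclear receptor Hr51 with GFP at its C-terminus. The description in the labels names anti-GFP for the precipitation, while another field gives Hr51 as the antibody. The 3 samples were biological replicates of 1 group, and no control library was among them. The labels do not give the copy number of the tagged gene, or the level of the fusion protein beside that of the native receptor. Whole embryos mix all tissues and many stages, so a peak cannot be assigned to a cell type.

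Hr51 (unfulfilled) belongs to the NR2E group of nuclear receptors, which bind DNA through zinc fingers, and it is known for its part in the remodelling of mushroom body neurons. A promoter is the DNA around a TSS where the transcription machinery assembles, and in flies many promoters of broadly expressed genes carry short sequences bound by factors such as DREF, BEAF-32 and M1BP rather than a TATA box. The irreproducible discovery rate (IDR) keeps peaks whose ranks hold up between replicates. A relaxed list is made as its input and holds weak peaks and background on purpose, so entries of such a list, called peaks throughout, are candidates and not established binding sites. The peaks that passed the filter at promoters, 2064 in number, are called IDR promoter peaks and serve for comparison.

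Sequences of 9 members show what their summits can look like. Each line gives the plus strand of dm6, 5′ to 3′, for 50 bp to either side of the summit, with the gene of the nearest TSS. Capitals mark, on either strand, the consensus sequence for which the member was chosen, and matches to other consensus sequences are left in lower case. Cog4 (a subunit of a Golgi tethering complex) and vib (a phosphatidylinositol transfer protein) show the DREF/BEAF consensus TATCGATA. Pp1alpha-96A (a protein phosphatase) and tub (an adaptor of Toll signalling) show the M1BP consensus GGTCACACT. The window at rtv shows the CTCF consensus AGNTGGCGC on the minus strand, and those at sNPF (a neuropeptide) and Pgant35A (a glycosyltransferase) the NR2E core site AAGTCA, which at sNPF starts at the summit and is on the minus strand. The last pair, at lawc and CG32195, have their summits in a coding exon downstream of the TSS and are shown for their base composition, so nothing is in capitals. They too hold matches, lawc to the GAGA factor consensus and CG32195 to AGGTCA, a core site of nuclear receptors.
Cog4, chr2L:10488603-10488703: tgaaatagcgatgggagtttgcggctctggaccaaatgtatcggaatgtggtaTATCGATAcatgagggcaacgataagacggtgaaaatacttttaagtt
vib, chr3R:19226655-19226755: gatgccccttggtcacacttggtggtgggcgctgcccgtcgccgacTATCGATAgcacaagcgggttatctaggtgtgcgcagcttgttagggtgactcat
Pp1alpha-96A, chr3R:24518159-24518259: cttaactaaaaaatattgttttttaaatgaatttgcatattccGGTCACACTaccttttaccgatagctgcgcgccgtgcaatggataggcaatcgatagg
tub, chr3R:4387641-4387741: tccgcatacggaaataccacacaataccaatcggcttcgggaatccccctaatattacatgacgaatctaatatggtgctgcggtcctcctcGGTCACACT
rtv, chrX:11154035-11154135: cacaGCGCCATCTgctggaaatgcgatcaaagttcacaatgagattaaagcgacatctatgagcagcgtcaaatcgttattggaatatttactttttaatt
sNPF, chr2L:20027544-20027644: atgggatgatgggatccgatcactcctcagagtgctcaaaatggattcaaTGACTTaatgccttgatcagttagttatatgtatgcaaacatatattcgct
Pgant35A, chr2L:14359066-14359166: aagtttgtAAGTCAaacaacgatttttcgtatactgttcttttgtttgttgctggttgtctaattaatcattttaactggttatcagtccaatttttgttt
lawc, chrX:8409900-8410000: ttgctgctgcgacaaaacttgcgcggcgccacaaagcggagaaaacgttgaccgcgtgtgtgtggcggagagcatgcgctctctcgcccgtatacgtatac
CG32195, chr3L:18114544-18114644: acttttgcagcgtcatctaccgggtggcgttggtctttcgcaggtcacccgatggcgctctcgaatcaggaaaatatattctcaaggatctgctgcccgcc

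These windows differed in base composition. They held 58.4% G and C at lawc and 54.5% at CG32195, both in coding sequence, against 28.7% at Pgant35A, 136 bp upstream of its TSS. The window of vib held 58.4% and also the M1BP consensus, which lies to the left of the capitals. The summits of Cog4 and vib lay 31 and 54 bp upstream of the TSS, and those of lawc and CG32195 148 and 310 bp downstream. Within each group these were the members of highest signal off arm 2R, not already shown for another consensus, whose window held at most 30 bases of annotated UTR. The coding exon pair was added after the values had been seen.

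Signal is the authors' value per peak, with no common scale between lists, and is used here to rank peaks within a list. Signal chose the members, since the filtered list held the pooled peaks of highest signal, so the following values are a description. The members had signals of 21.1 to 77.3 with a median of 34.4, and ranks of 3498 to 29976 in the pooled list. The IDR promoter peaks had a median signal of 122 and a lowest signal of 77.3. Just inside the limit lay the members at CG6664 (77.3027), CG8195 (77.2987) and eIF4E1 (77.2835). Just outside it lay the IDR promoter peaks at CG10809 (77.3102), l(1)G0289 (77.3489) and Ccs (77.3525). The lowest members, at stg, Mccc2 and CG14752, had signals of 21.1. The deposited −log10 q was 1 or more at 1896 members (30.5%), 2 or more at 759 (12.2%) and 3 or more at 47, against a lowest value of 3.00 at the IDR promoter peaks. Members made up 24.2% of the weaker peaks (exact 95% interval 23.7% to 24.7%), and IDR promoter peaks 59.0% of the filtered list. Among weaker peaks with a −log10 q of 2 or more the promoter share was 50.03%. The files hold no read counts, so the depth of the samples is unknown and intervals cover the counting of peaks only.

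The 25 members of highest signal lay at promoters of genes with varied roles. Ranks by signal in the lists of replicates 1, 2 and 3 stand beside the pooled rank. At eIF4E1, which encodes the cap-binding protein of translation initiation, the summit lay 25 bp downstream of the TSS, with pooled rank 3501 and ranks 4875, 5608 and 2747. At CG6664 it lay 29 bp upstream, with pooled rank 3498 and ranks 2517, 3729 and 4497. Both peaks were in all 3 replicates. At rau the pooled rank was 3512 and the replicate ranks were 5071, 16456 and 1350. At eRF3, a translation release factor gene, they were 2448, 3169 and 19640 for a pooled rank of 3520. At comt, which encodes the vesicle fusion factor NSF, they were 4763, 24891 and 2103 for a pooled rank of 3547. These 3 members stood high in part of the replicates and far down in another. At Hr39, another nuclear receptor gene, the peak ranked 2698 and 3037 in replicates 1 and 2 and was not found in replicate 3. The same held for Tollo (a Toll family receptor), Pkc98E (a protein kinase C) and Pdk (pyruvate dehydrogenase kinase), while CG2063 was not found in replicate 1. The remaining members of this group lay nearest to CG8195, CG15117, CG13893, Pp1alpha-96A, Rab11 (a GTPase of recycling endosomes), qless, bel (a DEAD-box RNA helicase), Cog4, CG6415, CG4619, Unc-76, jing (a zinc-finger factor), Nrt (a cell adhesion protein), Tsp29Fb and CG1620. Several genes can share a promoter window: 1147 members (18.5%) had TSSs of 2 or more genes within 500 bp, so naming the nearest gene only marks the place.

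**Figure D1:**
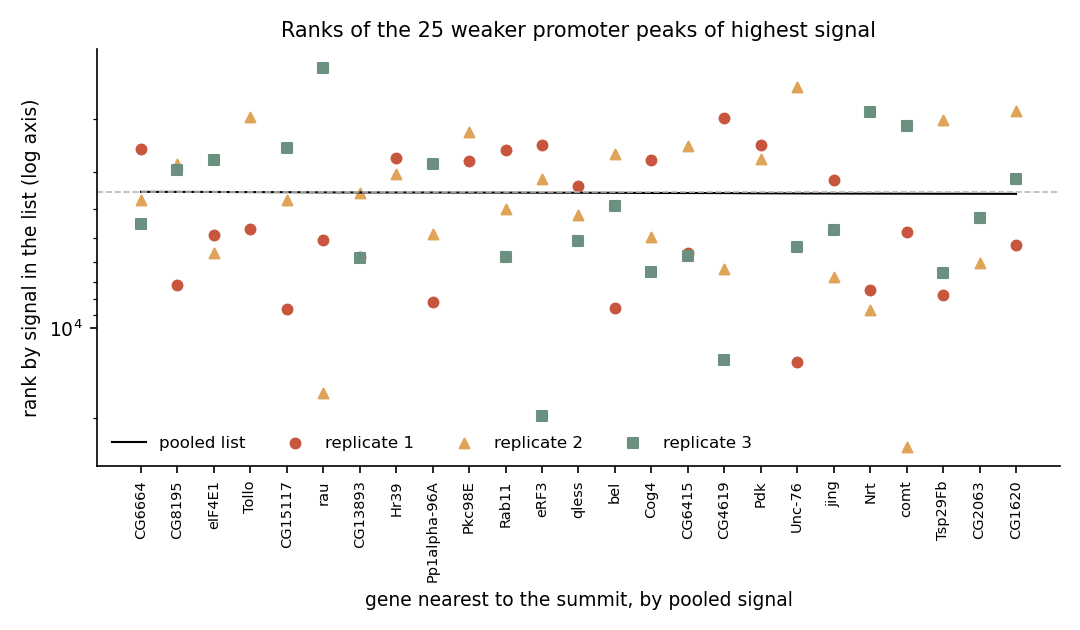
Ranks by signal (log axis, highest rank at the top) of the 25 weaker promoter peaks of highest pooled signal, with the pooled rank as a line and 1 symbol for each replicate. The dashed line is rank 3496, the length of the filtered list, and a missing symbol means that no summit of that replicate lay within 150 bp. Symbols scatter on both sides of the line at most genes, as at rau with ranks of 5071, 16456 and 1350.

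Most members were found in more than 1 replicate, and 23.8% in all 3. A summit of the relaxed list lay within 150 bp of 64.7%, 59.0% and 61.2% of members in replicates 1, 2 and 3, a mean of 61.6% ± 2.91 (SD, n = 3). For IDR promoter peaks the shares were 98.5%, 96.9% and 96.6%, and for weaker peaks away from promoters 50.1%, 52.7% and 51.03%. All 3 replicates held 1478 members (23.8%), against 15.7% of all weaker peaks and 92.3% of IDR promoter peaks. A further 2611 members were in 2 replicates, 1830 in 1 replicate and 294 in none of the 3. The pooled list was made from the same reads, so these shares are no independent test. When each replicate list was cut to its 3496 strongest peaks, it held 4.62%, 4.86% and 5.55% of members. The filtered list removed the strongest pooled peaks beforehand, so low values here follow largely from how the members were chosen. None of the 6213 was in that top set of all 3 replicates, 87 were in that of 2 and 760 in that of 1.

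Ranks of the same member differed widely between replicates. Across the 1478 members found in all 3, the Spearman correlation of ranks was 0.20 between replicates 1 and 2, 0.12 between 1 and 3 and 0.05 between 2 and 3. Across the 1906 IDR promoter peaks found in all 3 it was 0.73, 0.60 and 0.54. The filter rests on agreement of ranks between replicates, and the list it gave held the pooled peaks of highest signal. Members are promoter peaks that rank below that list in pooled signal, so this contrast is set by the choice and is no finding. Ranks still disagreed at some IDR promoter peaks, as at Ccs with 3179, 2478 and 20221 in replicates 1, 2 and 3. The values describe peaks that share libraries, and the members span a narrower range of signal. The highest single ranks, picked out with their values in view, were at CG4914, ranked 886 in replicate 3, and at stumps, a gene of mesoderm migration, ranked 905 there, and neither was found in replicates 1 and 2. At kel, whose protein builds ring canals of the egg chamber, the peak ranked 1061, 11939 and 10092 in replicates 1, 2 and 3. When members were cut into quintiles by signal, the share found in all 3 replicates was 68.2% in the strongest quintile, then 34.9%, 11.7% and 3.14%, and 0.965% in the weakest. In the weakest quintile of IDR promoter peaks it was 82.3%.

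**Figure D2:**
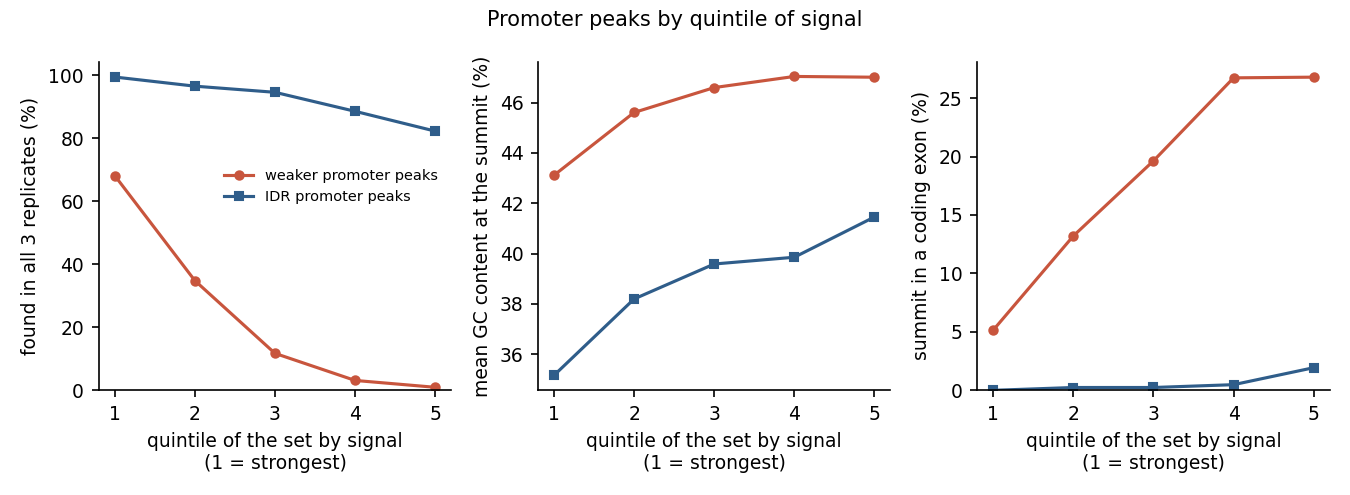
Weaker promoter peaks (circles) and IDR promoter peaks (squares) in quintiles of each set by signal, 1 being the strongest, with the percent found in all 3 replicates, the mean GC content within 50 bp of the summit and the percent of summits in a coding exon. Among weaker promoter peaks the first measure ran from 68.2% to 0.965%, GC content from 43.1% to 47.0% and the coding exon share from 5.15% to 26.8%.

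Weaker promoter summits straddled the TSS, while IDR promoter summits lay mostly upstream of it. The median signed position was 2 bp upstream for members and 74 bp upstream for IDR promoter peaks. Upstream summits made up 50.5% of members and 80.9% of IDR promoter peaks. In the replicates, with the same rule applied to each one's own list, the upstream share of members was 51.4%, 44.7% and 49.4% (48.5% ± 3.43, SD, n = 3). For IDR promoter peaks it was 77.0%, 76.5% and 71.7% (75.1% ± 2.92, SD, n = 3). The share of members was lower in 3 of 3 replicates, by more than the spread between replicates, with an exact two-sided sign-flip permutation p of 0.25, the smallest that 3 replicates allow. This holds for every test over replicates below, so no difference could pass 0.05.

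Members also lay farther from the TSS. The median distance was 138 bp for members and 88 bp for IDR promoter peaks. In the replicates it was 142, 163.5 and 157 bp for members (154 ± 11.03 bp, SD, n = 3) and 90, 91 and 103 bp for IDR promoter peaks (94.7 ± 7.23 bp), farther for members in 3 of 3 (exact sign-flip permutation p = 0.25). Summits within 100 bp made up 41.3% of members and 55.1% of IDR promoter peaks. Beyond 400 bp lay 10.8% of members and 3.39% of IDR promoter peaks. All members were 420 bp wide, so a member at a promoter with a filtered peak had to lie to its side. Such promoters were few: 779 members (12.5%) had a gene with an IDR promoter peak in their window. Among the other 5434 the median distance was 132 bp and the upstream share 50.9%. Position followed signal: the median distance was 78 bp in the strongest quintile of members and 203 bp in the weakest, and the upstream share 63.6% and 45.1%. With a −log10 q of 2 or more the median was 75 bp and the upstream share 68.1%, so the distance of these stronger members was not above that of IDR promoter peaks.

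**Figure D3:**
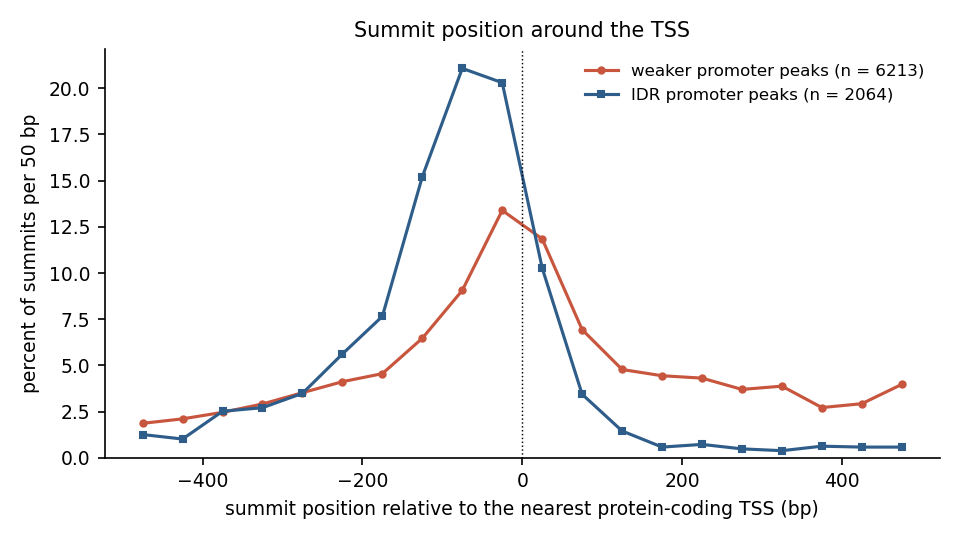
Percent of summits in each 50 bp interval around the nearest protein-coding TSS, with negative positions upstream, for 6213 weaker promoter peaks (circles) and 2064 IDR promoter peaks (squares). The weaker peaks reach 13.4% in the 50 bp before the TSS and stay at 2.72% or more out to 500 bp downstream, while the IDR promoter peaks lie below 1% beyond 150 bp downstream.

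Coding exons held a sizeable part of the members and almost no IDR promoter peaks. They held 1137 members, 18.3%, against 12 IDR promoter peaks, 0.581%. In the replicates the share was 16.1%, 23.5% and 19.6% of members (19.7% ± 3.68, SD, n = 3) and 2.00%, 2.62% and 3.04% of IDR promoter peaks (2.55% ± 0.524), higher for members in 3 of 3 (exact sign-flip permutation p = 0.25). Sequence outside protein-coding genes held 30.9% of members and 57.3% of IDR promoter peaks. The 5′ UTR held 29.2% of members and 20.9% of IDR promoter peaks, and introns 20.3% and 20.2%. Coding exon members had a median signal of 29.3, against 38.9 for members outside protein-coding genes. Their share was 5.15% in the strongest quintile and 26.8% in the weakest, and 3.29% of members with a −log10 q of 2 or more. It was 14.1%, 10.5% and 11.7% among members found in both other replicates, with replicates 1, 2 and 3 left out in turn. TSSs of both strands within 500 bp, as at divergent gene pairs, were found at 16.4% of members and 39.9% of IDR promoter peaks, and at 15.5% ± 0.973 and 39.9% ± 0.221 in the replicates (SD, n = 3). Within the members this share was 25.7% in the strongest quintile and 9.25% in the weakest.

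Weaker promoter summits were richer in G and C than their flanks, and IDR promoter summits were poorer. Windows of 50 bp to each side of member summits held 45.9% G and C, against 42.8% in windows 500 bp away on either side. For IDR promoter peaks the values were 38.8% at summits and 45.7% in flanks. At weaker peaks away from promoters they were 47.5% and 42.7%, so the gain was not particular to members. In the replicates member summits held 44.4%, 47.0% and 45.5% (45.6% ± 1.30, SD, n = 3), with 42.9% ± 0.237 in their flanks and 39.5% ± 0.608 at IDR promoter summits. Both differences had the same direction in 3 of 3 replicates (exact sign-flip permutation p = 0.25 each). Among members with a −log10 q of 2 or more the first difference turned round, with 42.5% at summits and 44.2% in flanks. Windows centred on all 19252 TSSs held 43.7%.

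The difference from IDR promoter peaks was seen at matched positions too. At 51 to 200 bp upstream of the TSS the mean was 41.6% for 1248 members (SD over peaks 12.0) and 36.2% for 907 IDR promoter peaks (SD 10.1). Within 50 bp of the TSS it was 46.0% (SD 8.40) and 44.1% (SD 8.46), a small gap beside the spread among peaks. At 201 to 500 bp downstream it was 52.4% for 1336 members (SD 10.2) and 42.0% for 70 IDR promoter peaks (SD 9.78). GC content among members was 43.1% in the strongest quintile and 47.0% in the weakest, and 41.5% in the weakest quintile of IDR promoter peaks.

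Sequences of broadly active promoters were more frequent at weaker promoter summits than beside them. Over all members they were less frequent than in windows centred on a TSS, from which member summits lay a median of 138 bp. Member summits were chosen near a TSS and flank windows were not, so a gain over flanks can follow from the choice alone. The same limit holds for every comparison of member summits with flanks. The DREF/BEAF consensus TATCGATA, bound by the DREF and BEAF-32 proteins and shown above for Cog4 and vib, was within 50 bp of 191 member summits, 3.07% (exact 95% interval 2.66% to 3.53%), against 0.660% of flank windows. In the replicates it was at 3.12%, 2.18% and 2.36% of summits (2.55% ± 0.502, SD, n = 3) and 0.809%, 0.780% and 0.704% of flanks, higher at summits in 3 of 3 (exact sign-flip permutation p = 0.25). It was at 5.52% of IDR promoter summits, and in the replicates at 2.55% ± 0.502 of member and 4.96% ± 0.555 of IDR promoter summits (SD, n = 3). Of weaker summits away from promoters, 0.0976% held it, and of all windows centred on a protein-coding TSS, 4.48%. The consensus GGTCACACT of M1BP, a zinc-finger protein of promoters with paused polymerase, was at 109 member summits, 1.75% (1.44% to 2.11%), against 0.330% of flanks. In the replicates it was at 1.66% ± 0.233 of summits and 0.385% ± 0.0444 of flanks (SD, n = 3, higher in 3 of 3). It was at 2.23% of IDR promoter summits and 3.64% of all TSS windows. At members with a −log10 q of 2 or more, DREF/BEAF was at 5.27% and M1BP at 3.69%, not below the shares of all TSS windows. Windows at TSSs without a pooled summit within 500 bp held them at 1.84% and 1.58%.

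Members with these sequences sat close to the TSS. The median distance was 33 bp for the 191 members with the DREF/BEAF consensus and 144 bp for those without it. TSSs of both strands were near 41.9% of the members with it and 15.6% of those without, and 36.1% and 23.4% were found in all 3 replicates. With the M1BP consensus the median distance was 29 bp, and without it 141 bp. From the strongest to the weakest quintile the DREF/BEAF share was 5.07%, 3.86%, 3.06%, 1.69% and 1.69%, and the M1BP share 3.62%, 1.45%, 2.09%, 1.21% and 0.402%. Among all 2080 6-mers, each pooled with its reverse complement, the largest gains at member summits over flanks were those of TATCGA (10.2% and 4.66%), CGATAG (7.73% and 3.15%), ATCGAT (8.32% and 3.9997%) and ACACTG (7.5004% and 4.05%). The first 3 overlap the DREF/BEAF consensus. The largest losses were those of ATTAAA (11.2% and 15.02%) and AATTAA (10.4% and 13.6%), both made of A and T alone.

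The core site of Hr51's own receptor group was not more frequent at weaker promoter summits. AAGTCA was at 248 member summits, 3.99% (3.52% to 4.51%), and 4.54% of flanks. The replicates had 4.50%, 4.17% and 3.99% at summits and 4.35%, 4.64% and 4.73% in flanks, lower at summits in 2 of 3 (exact sign-flip permutation p = 0.50). It was at 5.14% of IDR promoter summits and 4.36% of their flanks. For weaker peaks away from promoters the values were 4.39% and 5.03%. Of all TSS windows 5.98% held it, and its share was 3.94% in the strongest quintile of members and 3.86% in the weakest. With a −log10 q of 2 or more the direction turned, 4.22% at summits and 3.95% in flanks, values that rest on few peaks. The core site AGGTCA of many nuclear receptors was at 1.90% of member summits, 2.66% of flanks and 1.62% of all TSS windows, lower at summits than flanks in 3 of 3 replicates. A match of 6 bases is frequent anywhere, and absence of the letters from a window says nothing on binding.

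Other consensus sequences, searched on both strands, differed from the flanks in either direction. The CTCF consensus AGNTGGCGC, of an insulator protein, was at 42 member summits, 0.676%, against 0.410% of flanks, and at 0.699% ± 0.0631 and 0.406% ± 0.0139 in the replicates (SD, n = 3). It was at 0.364% of all TSS windows, and at weaker peaks away from promoters at 0.827% of summits and 0.326% of flanks. The GAGA factor consensus GAGAGAG was at 2.62% of member summits, 1.90% of flanks, 1.89% of IDR promoter summits and 1.54% of TSS windows, and higher at summits than flanks in 3 of 3 replicates. The E-box CAGCTG was at 7.21% of summits, 5.13% of flanks and 8.77% of TSS windows. At weaker peaks away from promoters it was at 6.53% of summits and 4.68% of flanks. The TATA box TATAAA was at 10.4% of member summits, 12.6% of flanks, 15.6% of IDR promoter summits and 15.5% of TSS windows. Its summit share varied between replicates, 11.1%, 7.89% and 12.1%, and was lower than that of the flanks in 2 of 3. The Initiator TCAGTT was at 7.52% of summits, 6.37% of flanks and 15.5% of TSS windows. The homeodomain core TAATTA was at 4.28% of member summits and 6.45% of flanks, and at 7.27% of IDR promoter summits and 4.60% of their flanks, so summits stood below their flanks in one set and above in the other. At weaker peaks away from promoters TAATTA was at 4.66% of summits and 6.59% of flanks, and its share of TSS windows was 2.99%. For the remaining 5, the share at member summits, in flanks and in TSS windows was 0.660%, 0.684% and 0.483% for CAGGTAG (Zelda), 1.35%, 1.30% and 1.82% for the E-box CACGTG, 2.21%, 1.49% and 2.09% for GCCATNTT (Pho), 2.58%, 2.37% and 3.18% for TGTTTAC (forkhead proteins) and 4.91%, 5.59% and 4.24% for the GATA factor site AGATAA.

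**Figure D4:**
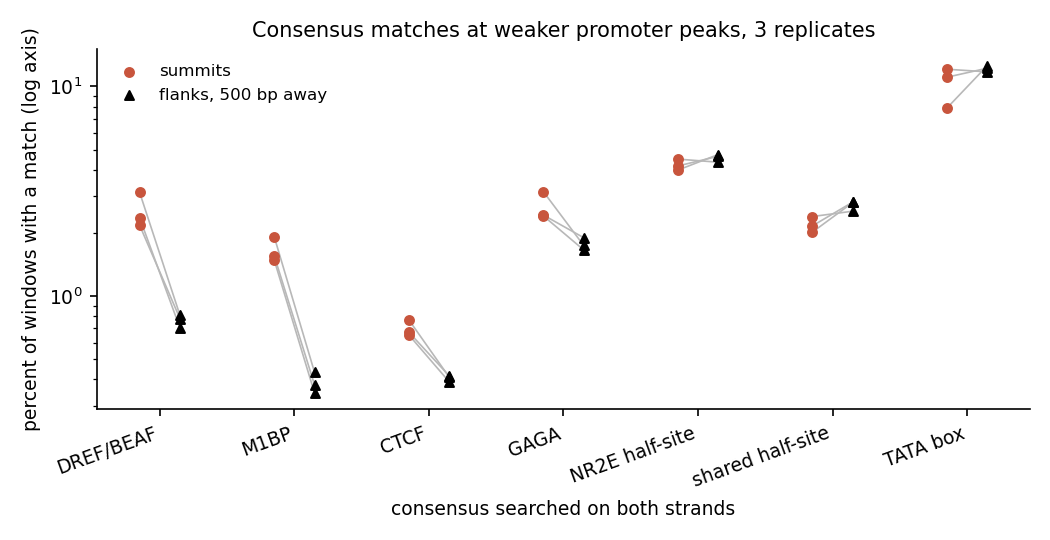
Percent of windows, on a log axis, with a match to 7 of the consensus sequences at summits (circles) and 500 bp away (triangles) for weaker promoter peaks of the 3 replicates' own lists, with lines joining a replicate. DREF/BEAF lies at 2.18% to 3.12% at summits and 0.704% to 0.809% in flanks, while the lines of the NR2E core site cross.

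Weaker promoter peaks lay at more genes than IDR promoter peaks did, an order that follows from the length of the relaxed list. Of 13945 protein-coding genes, 4883 (35.0%) had a weaker promoter peak and no IDR promoter peak, 2669 (19.1%) had an IDR promoter peak and 6393 (45.8%) had neither. Both kinds were at 518 of the 2669. With a −log10 q of 2 or more, the first group held 868 genes (6.22%), fewer than the 2669. The replicates' own lists gave 4905, 4415 and 4658 such genes (4659 ± 245, SD, n = 3), and 2504 of the 4883 were in all 3 of these sets. Members found in both other replicates gave 2163, 2479 and 2365 genes with replicates 1, 2 and 3 left out in turn, from sets of fewer peaks. A single weaker promoter peak was at 3812 genes, 2 at 1264 and 3 or more at 325, with up to 8 at Svil, Tm1 (tropomyosin) and sd (the partner of Yorkie in Hippo signalling). Members can overlap one another, as those at CG8160 below do, so several at a gene need not be separate regions. The following gene lists were read against the 35.0%, with no test over genes, and "weaker only" stands for a weaker promoter peak without an IDR promoter peak. Peaks of low −log10 q are included, so each count holds background. A gene with several TSSs has more windows in which a peak can fall, and the shares are not adjusted for this. A gene with an IDR promoter peak cannot be weaker only, so a list with many such genes has fewer left to be counted. Of all genes without an IDR promoter peak, 43.3% had a weaker one.

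Genes of protein synthesis differed in how often they had an IDR promoter peak, and so in how many could be weaker only. Cytosolic ribosomal proteins, which build the main ribosome, had an IDR promoter peak at 61 of 86 genes, so 21 were weaker only (24.4%) and 4 had neither. Of the 25 without an IDR promoter peak, 84.0% thus had a weaker one, against 43.3% of all genes without an IDR promoter peak. The strongest were at RpL12 (signal 76.0, pooled rank 3579, ranks 1773, 9338 and 9649 in the replicates), RpS28a (75.7, 3599, and 25216, 2909 and 2686), RpS6 (70.2, 3997, and 3563, 3209 and 7329) and RpS13 (60.1, 5086, and 4583 and 10518 in replicates 1 and 3). The count of weaker-only genes was 22, 18 and 20 in the replicates. Mitochondrial ribosomal proteins were weaker only at 34 of 73 genes (46.6%; 34, 35 and 35 in the replicates), among them mRpL32, mRpL44, mRpL48 and mRpS11. The peak at mRpL32 is the one named above for qless, since both TSSs lie in its window. Aminoacyl-tRNA synthetases, which charge transfer RNAs, were weaker only at 19 of 32 genes (59.4%; 20, 14 and 19 in the replicates), led by MetRS (signal 70.5), PheRS-m (69.5) and GlyRS (62.8). Translation initiation factors were weaker only at 19 of 44 (43.2%), led by eIF4E1, eIF2Bepsilon, eIF3d1 and eIF1A, the last found in only 1 replicate. Mitochondrial ribosomal proteins, synthetases and initiation factors had an IDR promoter peak at 26 of 73, 8 of 32 and 12 of 44 genes. Of their genes without one, 72.3%, 79.2% and 59.4% had a weaker peak, so the 84.0% of cytosolic ribosomal proteins was the highest of these shares.

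Genes of protein breakdown and energy metabolism were above the 35.0% in the pooled list. In the replicates' own lists 35.2%, 31.7% and 33.4% of all genes were weaker only. Proteasome subunits were weaker only at 23 of 48 genes (47.9%; 41.7%, 45.8% and 35.4% in the replicates, the last near the share of all genes), led by Prosalpha7 (signal 74.4) and Rpn11 (74.4), a deubiquitinase of the lid. The respiratory chain and ATP synthase list was weaker only at 35 of 79 (44.3%; 46.8%, 34.2% and 34.2% in the replicates), near the share of all genes in replicates 2 and 3, and was led by RFeSP, SdhD and Cyt-c-p. Glycolysis genes were weaker only at 6 of 13 (46.2%; 46.2%, 38.5% and 30.8% in the replicates, the last below the share of all genes). The other 7 had an IDR promoter peak, and Pgi (76.1) and Tpi (74.8) were the strongest of the 6. Cell cycle genes were weaker only at 12 of 23 (52.2%; 12, 12 and 11), with E2f1 (signal 72.8), which drives entry into S phase, dap (66.4), an inhibitor of Cyclin E complexes, CycE (64.7) and CycB (62.2).

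Lists of transcription factors and cofactors had weaker-only shares between 27.8% and 52.4%. RNA polymerase and general transcription factors were weaker only at 21 of 55 genes (38.2%), near the 35.0%, with Taf11, Taf5, Polr2C and Polr2A. An IDR promoter peak was at 19 of the 55. Of those without one, 58.3% had a weaker peak, against 43.3% of all such genes. Mediator subunits were weaker only at 11 of 25 (44.0%), with MED31 the strongest (signal 76.2). Their share was 48.0%, 28.0% and 36.0% in the replicates, below the 31.7% of all genes in replicate 2. Of the insulator and promoter factors 5 of 18 were weaker only, among them CTCF (72.9) and the Polycomb recruiters phol (66.9) and pho (43.9). Another 9 of the 18 had an IDR promoter peak, and of those without one 55.6% were weaker only. The peak at pho was found in only 1 replicate. Nuclear receptors were weaker only at 11 of 21 (52.4%; 9, 10 and 12 in the replicates). Hr39 had the highest signal there (77.0), then ftz-f1 (68.6; ranks 5047, 10002 and 2473), Hr78 (51.7) and Hr83 (49.3), a receptor of the NR2E group. Hr51 itself had an IDR promoter peak and no weaker one.

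Hox genes held weaker promoter peaks of low rank. Of the 8 Hox genes, which set segment identity, 7 were weaker only and none had an IDR promoter peak, but none of the 7 peaks reached a −log10 q of 2. The highest member signal was 48.6 at lab, ranked 10277, 7436 and 8430 in the replicates. It was 39.2 at Abd-B, 32.7 at Dfd, 30.8 at Ubx, 29.7 at Antp, 28.1 at Scr and 24.0 at abd-A, and pb had none. The replicates' own lists gave 4, 6 and 7 Hox genes. Segmentation genes were weaker only at 9 of 26 (34.6%), at the background, with odd (67.7), opa (57.3), arm (46.5) and en (44.4). Notch pathway genes were weaker only at 8 of 18, with Psn (71.0), a subunit of gamma-secretase, H (70.9), kuz (68.8) and mam (58.1).

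Lists of the nervous system had weaker-only shares above the 35.0%, as had most of the other lists. Among those others, aminoacyl-tRNA synthetases had 59.4% and cell cycle genes 52.2%. The mushroom body and learning list, which covers the cells in which Hr51 is best known, was weaker only at 14 of 25 (56.0%; 14, 10 and 13 in the replicates). Its strongest were sNPF (a neuropeptide, signal 75.4, ranks 2705 and 8516 and not found in replicate 3), ftz-f1, rut (an adenylyl cyclase needed for learning, 66.6, ranks 4502, 5890 and 3068) and Pka-C1 (65.8). Neuroblast and neuronal genes were weaker only at 18 of 31 (58.1%; 19, 16 and 18), with scrt (76.1, ranks 3392, 5181 and 4473), pros (71.8), dpn (64.9) and sna (61.4). Glial genes were weaker only at 7 of 13 (6, 6 and 6), with loco (67.7, ranks 5588, 4792 and 5317), nrv2, Gli and wrapper. Axon guidance genes were weaker only at 11 of 27 (40.7%), with Ten-m, trio, fra and comm. Another 10 of the 27 had an IDR promoter peak, and of those without one 64.7% were weaker only. Of the muscle and mesoderm genes 11 of 23 (47.8%; 43.5%, 52.2% and 34.8% in the replicates) were weaker only, with sna, Mef2 (49.9), rst and sns. Germline genes were weaker only at 4 of 14 (28.6%), below the share of all genes, namely vas, gcl, spn-E and stau. Each of these 4 windows also held a TSS of another gene, and the peak at gcl was found in only 1 replicate.

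Genes of cuticle proteins, and of chemoreceptors and odorant-binding proteins, mostly had no peak of either kind. Cuticle proteins, made by the epidermis as the exoskeleton forms, had neither at 95 of 117 genes and were weaker only at 22 (18.8%), with no IDR promoter peak and none at a −log10 q of 2 or more. Their count varied between replicates, 20, 37 and 19, so replicate 2 stood apart. The strongest, at Lcp9, had a signal of 54.7, and the next, at Twdlbeta (41.6), Cpr66D (37.4) and TwdlN (35.9), had their summits in coding exons. Chemoreceptors and odorant-binding proteins had neither at 210 of 230 genes and were weaker only at 18 (7.83%; 29, 26 and 15 in the replicates), among them Obp83g (63.8), the carbon dioxide receptor gene Gr63a (63.0), Obp44a (59.5) and Gr97a (43.1). The peak at Gr97a was found in no replicate and had a −log10 q of 0.934. Windows at Gr63a and Gr97a each held TSSs of 2 genes, and the summit at Obp44a lay in a coding exon.

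**Figure D5:**
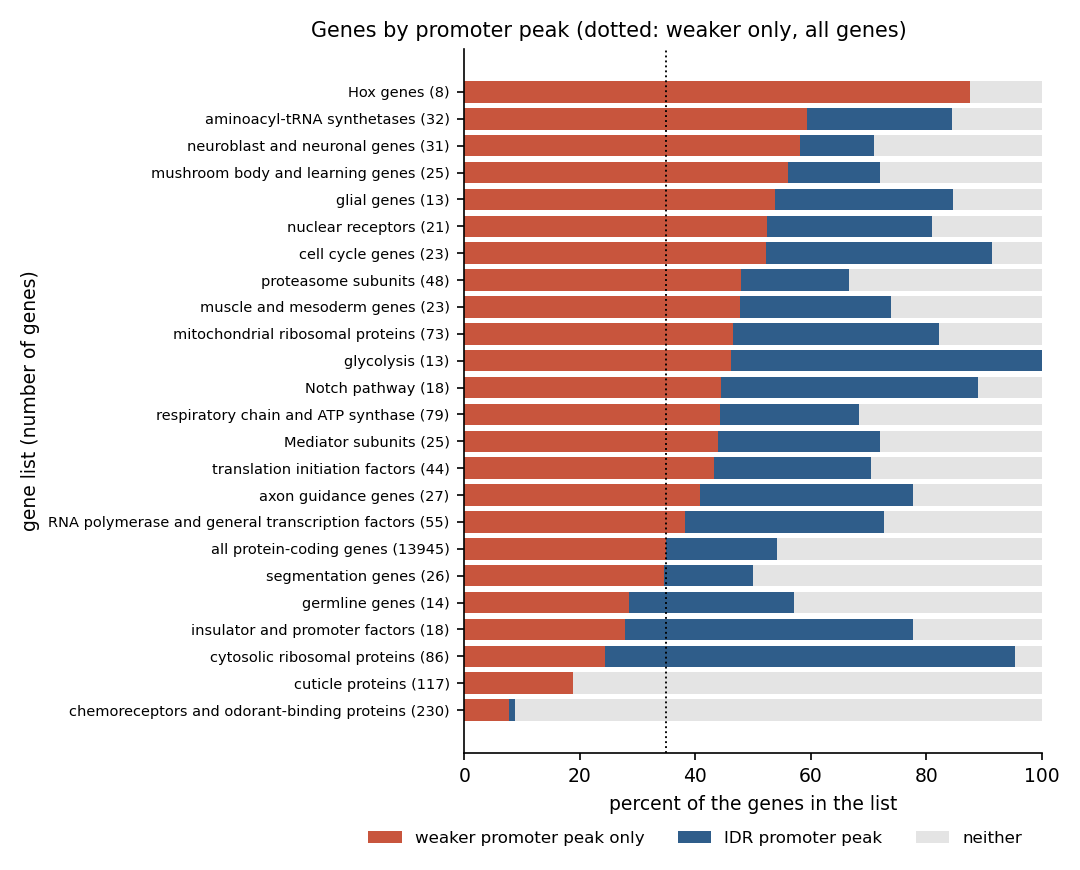
Percent of the genes in each of 23 lists and of all 13945 protein-coding genes with a weaker promoter peak only, an IDR promoter peak, or neither, with the number of genes in parentheses. The dotted line is the 35.0% of all genes that were weaker only. Hox genes lie highest at 7 of 8, and chemoreceptors and odorant-binding proteins lowest at 7.83%.

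The weaker-only share of genes was similar on the large arms. On chromosome 4, a small and largely heterochromatic chromosome, 34 of 80 genes (42.5%) were weaker only and 6.25% had an IDR promoter peak, against 32.0% to 38.7% and 17.1% to 20.8% on the other arms. The replicates' own lists held 64, 26 and 35 members on chromosome 4, so replicate 1 stood apart, and the pooled count of 34 members is small. Within 20 kb of Hr51 lay 6 members, at Arf6 (signal 60.0), unc-5 (a netrin receptor, 24.1), Xpc (21.6) and 3 at CG8160 (50.5, 36.0 and 23.5). The one at Arf6 ranked 2861, 3629 and 17428 in the replicates. The 3 at CG8160 lie side by side, each overlapping the next. Those at unc-5 and Xpc were each found in only 1 replicate, with a −log10 q of 0.129 and 0.0778. The count near Hr51 was not compared with that at other loci.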

How the data were processed

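Peak lists from ChIP-seq of Hr51-eGFP in embryos, aligned to dm6, were used for 3 biological replicates, the pooled reads and the IDR filter, 5 lists in all. The deposited README text describes the replicate and pooled lists as relaxed input for IDR, made from the alignments and 1 further file. The signal and the −log10 q value of each peak are those the authors deposited. The dm3 lists were not used. The name of the aligner or of the peak caller is not given in the sources used here. Per the labels, fragments were 200 to 800 bp long.

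Summits were placed on TSSs of Ensembl release 115 (FlyBase 6.54) and on RefSeq's Release 6 sequence, 6 chromosome arms. The IDR list was used as deposited, and IDR promoter peaks were its peaks with a summit within 500 bp of a protein-coding TSS. A member was found in a replicate when a summit of its list lay within 150 bp. For tests over replicates the rule was applied to each replicate's own list (6242, 5512 and 5967 members), and the replicate's peaks that overlapped an IDR peak served as IDR promoter peaks, with an exact two-sided sign-flip permutation test. Summits in overlapping features were counted under the 5′ UTR before coding exons, these before the 3′ UTR, and exons before introns. The 15 consensus sequences were sought within 50 bp of summits and 500 bp to either side. Intervals are exact Clopper-Pearson 95% intervals. Peaks and genes are not replicates, so no test was run over them.

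The members, gene lists (10 symbols had no match) and tests were chosen with earlier results of these data known. Named genes are those nearest to the 25 members of highest signal, up to 4 per list of highest signal, Hr51, and, for sequences, the members of highest signal off arm 2R that hold a consensus. Python 3.11.15 was used with scipy 1.17.1, pandas 2.3.3, numpy 2.4.6 and, for plots, matplotlib 3.10.9. The scripts were tested on simulated data.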

Additional observations from a re-analysis of the deposited data

How the results depend on the processing

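Most values moved with how strong and how near to the TSS a peak had to be. With a −log10 q of 2 or more the list held 759 peaks and 868 weaker-only genes, 4 of them ribosomal. The promoter share was then 50.03%, the upstream share 68.1%, the coding exon share 3.29%, the median distance 75 bp, the DREF/BEAF share 5.27% and the mean share found in a replicate 90.8%. GC content turned round there (42.5% at summits, 44.2% in flanks), as did the NR2E core site (4.22% and 3.95%), and the cause was not tested. The DREF/BEAF share, below the 4.48% of all TSS windows over all members, was above it there. With ranks up to 15000 the same measures were 3596 peaks, 32.8%, 55.5%, 12.3%, 104 bp, 4.06% and 75.2%.

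At a promoter distance of 250 bp the promoter share was 16.9%, the coding exon share 9.66%, the median distance 79 bp, the DREF/BEAF share 4.23% and the share found in a replicate 64.8%. At 1000 bp there were 9482 members, a promoter share of 36.9%, an upstream share of 43.7%, a coding exon share of 28.9%, a GC content of 47.4%, a median distance of 293 bp and a DREF/BEAF share of 2.02%. With TSSs of all genes except transposable elements the promoter share was 26.9%. With windows of 100 bp to each side DREF/BEAF was at 4.91% and the NR2E core site at 8.19% of summits. Matching within 75 bp found 49.2% of members in a replicate, within 300 bp 72.8%, and among the 3496 strongest replicate peaks 5.15%.

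Keeping only members found in both other replicates, with replicates 1, 2 and 3 left out in turn, gave 2161 to 2488 peaks and 2163 to 2479 weaker-only genes, 10 to 12 of them ribosomal, since fewer peaks meet the condition. The promoter share was 30.5% to 33.9%, the upstream share 54.2% to 56.7%, the coding exon share 10.5% to 14.1%, the GC content 44.5% to 46.2%, the median distance 96.5 to 107 bp, the DREF/BEAF share 3.75% to 4.34% and the NR2E share 3.05% to 3.88%. The share found in a replicate has no such value, being fixed by that construction. GC content and the M1BP share, the upstream share and the coding exon share were given alternatives after the data had been seen, as was the setting of members near no gene with an IDR promoter peak. Under that setting, and when peaks within 500 bp of an IDR summit were dropped, every measure named here that was recomputed moved by less than 1 SD between replicates, and every count by less than 1.5 times. No paired analysis was possible because there was 1 group of samples, so no replicate number could be shared across groups, and the comparisons within replicates, of summits with flanks and of weaker with IDR promoter peaks, are paired already.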
